A study of Mus musculus with 18 samples.

Results

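The lipase inhibitor experiment asked, among other things, how much of the transcriptional response to the compound SR-3420 passes through the triglyceride lipases. It is described here through 1 contrast, the effect of SR-3420 in the presence of lipase inhibitors minus its effect in their absence, which is the interaction of the 2 treatments. The 12 samples that define it, of 18 in the series, were taken by their titles and form 4 groups of 3, named Vehicle, SR-3420, Lipase Inh. + Vehicle and Lipase Inh. + SR-3420. All 4 groups were in vitro differentiated BAT-LgT cells, a mouse brown preadipocyte line that SV40 large T antigen has immortalised, and were collected on day 7 of differentiation. As a single immortalised line, the cells stand for no animal and carry the viral antigen in every group. Inhibitor groups were pretreated for 1 h with Atglistatin, an inhibitor of adipose triglyceride lipase (ATGL), together with CAY10499, an inhibitor of hormone-sensitive lipase (HSL). All cells then received vehicle or SR-3420 for 3 h. The labels give 10 µM SR-3420, the text of the study gives another dose, and the difference was not settled here. The other groups of the series, which received the β-adrenergic agonist isoproterenol, entered the gene filter, the scaling and the estimate of spread, and no comparison.

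In brown adipocytes, fatty acids are released from stored triglyceride by ATGL and then HSL. ATGL needs its co-activator ABHD5, which at rest is held on the lipid droplet by perilipin. SR-3420 is a ligand that frees ABHD5 and so activates ATGL without a β-adrenergic signal. Released fatty acids are fuel for oxidation, ligands of the PPAR nuclear receptors and, in excess, a burden on mitochondria and the endoplasmic reticulum. An interaction below 0 means that SR-3420 raised a gene less, or lowered it more, when the lipases were inhibited, and an interaction above 0 means the opposite.

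Gene counts were measured by RNA-seq. Of the 18 libraries, 17 held 10310447 to 21205032 counts. Lipase Inh. + SR-3420 replicate 2 stood apart with 4263755 counts, 18.3% of them from Lars2 (0.0397% to 0.121% elsewhere), 74 tested genes at 0 counts (at most 20 elsewhere) and the widest spread around its group. Calls that change without it are given with and without it. The adipocyte markers, among them Adipoq, Fabp4 and Plin1, summed to 9063 to 12776 CPM (counts scaled to library size with TMM factors) in the 12 libraries, against 315 to 489 for 10 preadipocyte and fibroblast markers, 5.41 to 10.9 for 6 macrophage markers and at most 2.55 for 7 muscle markers. Ptprc, Myf5 and Myh1 were at 0 counts in all 12 libraries. The adipocyte sum was higher with SR-3420 (12228 to 12776) than in Vehicle (10430 to 11788), as was the preadipocyte sum (456 to 489 against 315 to 438), and the part of either in the results was not tested. Fewer cells of a type and less RNA per cell cannot be told apart in such bulk samples.

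SR-3420 changed far fewer genes once the lipases were inhibited, and the interaction was large in both directions. A gene was called when its Benjamini-Hochberg adjusted p in edgeR's quasi-likelihood test was at most 0.05 and its log2 difference at least 1. Of 12156 genes tested, 482 were called higher with SR-3420 than with Vehicle (3.97%) and 288 lower (2.37%) without inhibitors. With inhibitors, 26 were higher (0.214%) and 10 lower (0.0823%). The interaction itself was called below 0 for 294 genes (2.42%) and above 0 for 170 genes (1.4%). On adjusted p alone, the interaction lay below 0 for 1797 genes (14.8%) and above 0 for 1524 (12.5%), and the effect with inhibitors was upward for 363 (2.99%) and downward for 165 (1.36%). The median interaction over all genes tested was 0.01. Libraries scaled by total counts alone gave 238 genes below and 225 above 0, an upward share of 48.6% in place of 36.6%. That scaling moved the median effect of SR-3420 over all genes from -0.02 to -0.18 without inhibitors and from 0.00 to -0.10 with them, so directions are given relative to the median gene.

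**Figure D1:**
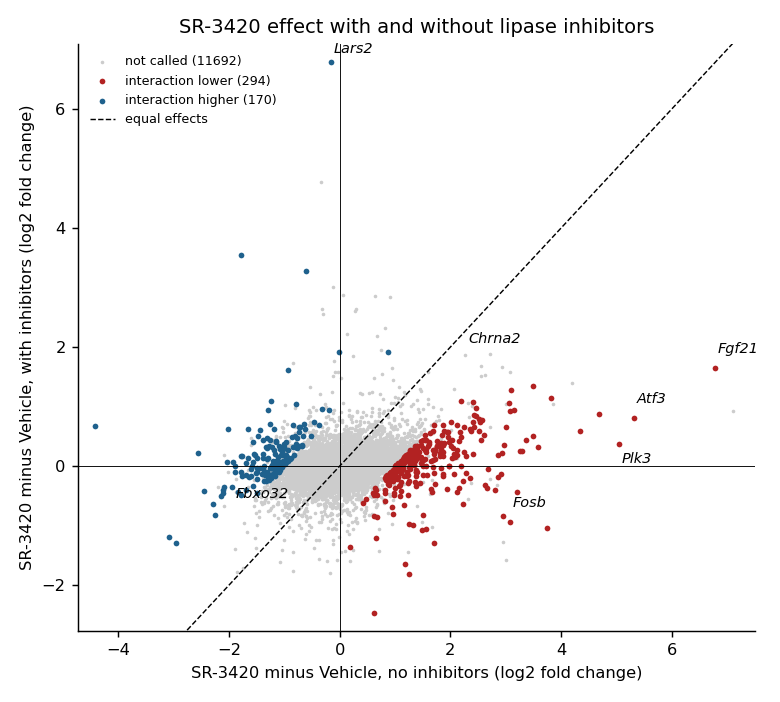
Each point is 1 of 12156 genes, with the log2 effect of SR-3420 against Vehicle without inhibitors on the x axis and with inhibitors on the y axis. Genes with an interaction called below 0 (294, red) lie mostly far to the right and close to the horizontal axis, those called above 0 (170, blue) lie mostly to the left, and Lars2 at the top rests on 1 library.

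Genes raised by SR-3420 kept little of their induction. The effects with and without inhibitors share no samples, so the effect with inhibitors is a measure that the choice of the 482 SR-3420-induced genes did not use, while the interaction shares 6 samples with that choice. Among these 482 genes, 384 (79.7%) were also higher with SR-3420 under inhibition, compared with 50.7% of all genes tested, and 116 (24.1%) were higher at an adjusted p of at most 0.05, against 2.99% of all genes. None of the 482 was lower at that threshold in the main edgeR fit, with 9 lower at an unadjusted p under 0.05 and 2 by DESeq2. In edgeR with the replicate number as a block, Fos and Hspa1b were lower (adjusted p = 0.0179 and 0.0318), and others were not counted. The median effect of SR-3420 on the 482 genes was 1.35 without inhibitors and 0.27 with inhibitors, against -0.02 and 0.00 over all genes. The interaction opposed the induction at an adjusted p of at most 0.05 for 392 genes (81.3%) and was called for 252 (52.3%), and for the remaining 90 no interaction passed the test. The share of the log2 induction kept, the effect with inhibitors divided by that without, had a median of 0.189 with quartiles of 0.0538 and 0.316. It lay above 0.5 for 39 genes and below 0 for 98. Its divisor is the effect by which the genes were chosen, so the share is not free of that choice. Computed from same-numbered samples, the median share was 0.174, 0.188 and 0.197 (0.186 ± 0.0116, SD, n = 3). Of the 392 reduced genes, 156 differed from Vehicle in either direction in Lipase Inh. + SR-3420 at an adjusted p of at most 0.05. The matching share over all genes was not counted, so no residual induction is read from this.

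Genes lowered by SR-3420 showed the mirror image with fewer genes passing each test. Among the 288 SR-3420-repressed genes, 217 (75.3%) also lay lower with SR-3420 under inhibition, 22 of them (7.64%) at an adjusted p of at most 0.05 against 1.36% of all genes, and 2 were higher at that threshold. Their median effect was -1.20 without inhibitors and -0.17 with inhibitors. The interaction opposed the repression at an adjusted p of at most 0.05 for 197 genes (68.4%) and was called for 124 (43.1%), while 91 did not pass. Of the 197, 29 differed from Vehicle in either direction in Lipase Inh. + SR-3420, again without a counted share over all genes. The median share of the log2 repression kept was 0.139 with quartiles of 0.00195 and 0.284. Per same-numbered set it was 0.118, 0.123 and 0.221 (0.154 ± 0.0582, SD, n = 3). The spread of that share over replicates takes in the value of the induced genes, and the difference between the 2 shares was not tested.

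**Figure D2:**
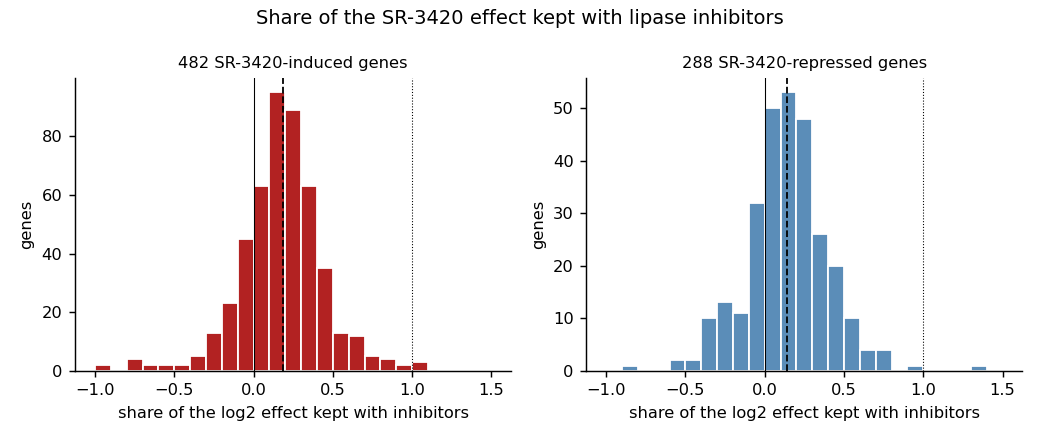
Histograms of the share of the log2 effect of SR-3420 kept with lipase inhibitors (x axis, ratio of log2 effects, values beyond the ends placed in the end bins) against the number of genes (y axis). The dashed lines mark the medians of 0.189 for 482 induced genes and 0.139 for 288 repressed genes, the solid lines mark 0 and the dotted lines mark an equal effect.

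Fgf21, a hormone secreted by brown fat and liver that is induced by fasting and cellular stress, had the largest loss of induction among the genes named by rule. Fgf21 lies at chr7:52869260-52870860 on the minus strand of mm9. Its level was 0.316, 0.541 and 0.353 CPM in Vehicle and 40.2, 59.9 and 34.8 CPM in SR-3420. With inhibitors it was 0.437, 0.412 and 0.867 CPM in Lipase Inh. + Vehicle and 2.07, 1.60 and 1.84 CPM in Lipase Inh. + SR-3420. In each arm the SR-3420 samples were all above their Vehicle samples, and the inhibited SR-3420 samples were all below the uninhibited ones. The log2 effect fell from 6.77 ± 0.31 (SE, 3 samples per group) to 1.64 ± 0.47, an interaction of -5.13 ± 0.73 (adjusted p = 2.02e-05, 4.93e-05 without Lipase Inh. + SR-3420 replicate 2). The remaining induction was as large without replicate 2, in which Fgf21 had 6 counts (1.68, adjusted p = 0.0752, against 1.64 and 0.0476 with all libraries), and lost its call in 12 alternatives (adjusted p up to 0.504).

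Atf3, a stress-induced transcription factor of the ATF/CREB family, lies at chr1:192994176-193007212 on the minus strand. Atf3 measured 15.04, 14.99 and 12.1 CPM in Vehicle and 529, 640.3 and 511 CPM in SR-3420. Under inhibition it measured 18.5, 17.96 and 17.3 CPM with vehicle and 31.0, 31.4 and 31.4 CPM with SR-3420. The groups did not overlap in either arm, and the log2 effect shrank from 5.31 ± 0.16 to 0.80 ± 0.16 (adjusted p = 0.00468). Its interaction was -4.504 ± 0.23 (adjusted p = 1.06e-11), so that about 0.152 of the log2 induction was kept.

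Fbxo32, which encodes atrogin-1, a ubiquitin ligase subunit known from muscle wasting, was the repressed counterpart, at chr15:58007434-58046447 on the minus strand. Levels were 51.9, 47.5 and 59.99 CPM in Vehicle and 11.8, 11.6 and 17.9 CPM in SR-3420, with no overlap. Under inhibition they were 54.9, 42.6 and 65.5 CPM and 56.1, 52.2 and 62.7 CPM, and these 2 groups overlapped. SR-3420 changed Fbxo32 by -1.92 ± 0.22 without and 0.08 ± 0.21 with inhibitors (adjusted p = 0.9 for the latter), an interaction of 2.00 ± 0.30 (adjusted p = 4.37e-05).

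**Figure D3:**
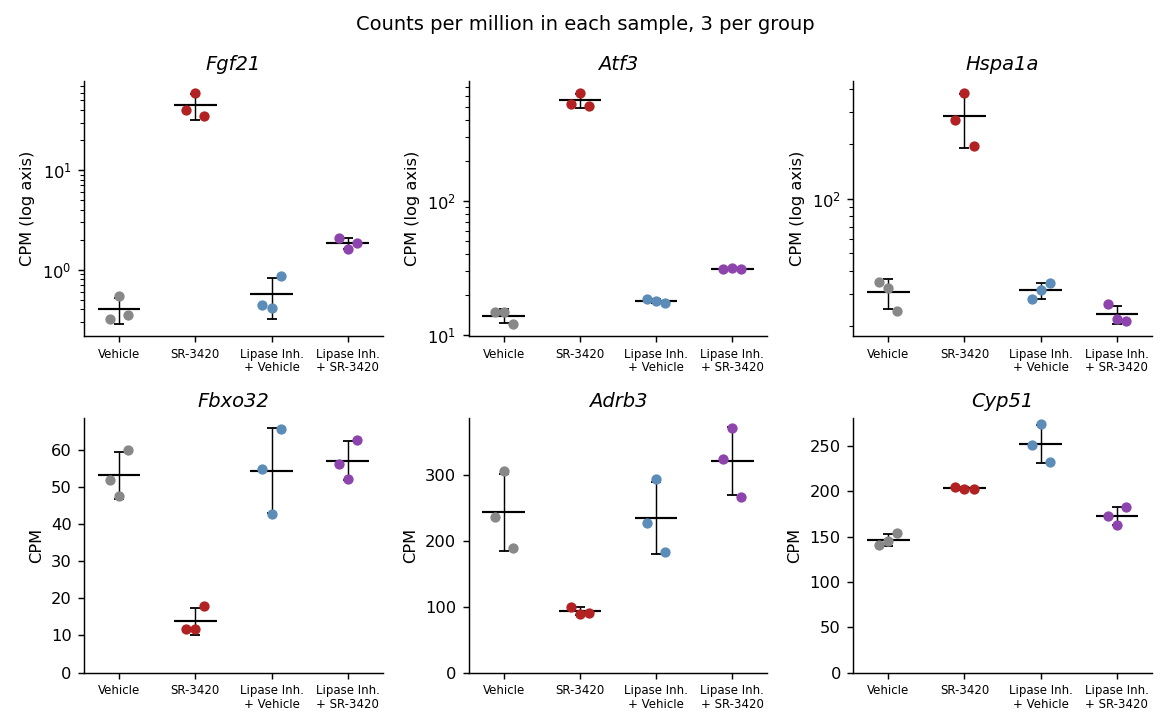
CPM of 6 genes in each of the 12 samples by group (points), with the group mean (bar) and SD (error bar, n = 3). The y axis is logarithmic for Fgf21, Atf3 and Hspa1a and starts at 0 for Fbxo32, Adrb3 and Cyp51. SR-3420 alone stands apart for the first 5 genes, and the Lipase Inh. + Vehicle samples are the highest for Cyp51.

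The list counts that follow stand against the shares of all genes tested. At an adjusted p of at most 0.05, 26% of all genes rose and 25.4% fell with SR-3420 alone, 2.99% rose and 1.36% fell with SR-3420 under inhibition, and 0.485% rose with the inhibitors alone, while the interaction was called below 0 for 2.42% and above 0 for 1.4%.

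Genes of the integrated stress response, the program run by the translation factor eIF2α and the transcription factors ATF4 and CHOP, rose with SR-3420 and kept part of the rise under inhibition. All 20 genes of the list were tested. SR-3420 raised 19 of them without inhibitors, 15 past both thresholds, and 12 at an adjusted p of at most 0.05 with inhibitors (3 past both). The count with inhibitors was 10 without Lipase Inh. + SR-3420 replicate 2, 8 in counts thinned to the smallest library and 7 with total counts alone. The median effect was 1.56 without and 0.49 with inhibitors, and the interaction was called below 0 for 12 genes and above 0 for 0 (0 by DESeq2 and 0 at an unadjusted p under 0.05). Ddit3, which encodes CHOP, measured 151, 129 and 135 CPM in Vehicle and 493, 547 and 478 CPM in SR-3420. With inhibitors Ddit3 measured 157, 144 and 169 and 263, 250.2 and 247 CPM, so it rose in both arms (log2 effects of 1.87 ± 0.07 and 0.69 ± 0.07, adjusted p = 5.53e-06 for the second). Gdf15, a secreted stress hormone, had effects of 3.82 and 1.14 with an interaction of -2.68 ± 0.24 (adjusted p = 7.00e-08). Chac1, which degrades glutathione, had effects of 2.20 and 1.097, with an interaction of -1.10 ± 0.17 (adjusted p = 4.08e-05). Cth, an enzyme of cysteine synthesis, differed: its effect of 1.4997 became 0.10 ± 0.16 (adjusted p = 0.817).

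Amino acid transporters, aminoacyl-tRNA synthetases and enzymes of serine and one-carbon metabolism, many of them targets of ATF4, rose without inhibitors and in few cases with them. SR-3420 raised 21 of 24 without inhibitors and 3 with them (1 with total counts alone), with medians of 0.80 and 0.22. The interaction was below 0 at an adjusted p of at most 0.05 for 16 and called for 4: the cationic amino acid transporter Slc7a1 (-1.93), the 2 subunits of a large neutral amino acid transporter Slc7a5 (-1.75) and Slc3a2 (-1.46), and the cysteinyl-tRNA synthetase Cars (-1.28). Chaperones and degradation factors of the endoplasmic reticulum showed no interaction past both thresholds in 22 genes. With SR-3420 alone 10 of them rose and 3 fell at an adjusted p of at most 0.05, with medians of 0.00 and -0.02 for the effects without and with inhibitors, and the interaction of 5 lay below and 1 above 0 at an adjusted p of at most 0.05 by edgeR, Hspa5 (BiP, the main chaperone of this compartment) with -0.82 ± 0.10 among the former. DESeq2 called none of this list past both thresholds either, and 10 had an unadjusted p under 0.05. Of the 24 markers of the unfolded protein response that the study listed, all rose with SR-3420, 7 rose with inhibitors and 12 had a called interaction below 0. With inhibitors 4 rose with total counts alone, and 10 rose and 1 fell with the replicate number as a block.

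Promoter windows of 8 genes with an interaction called below 0 hold the core of the C/EBP-ATF response element, the sequence through which ATF4 acts. Short stretches before the start sites are shown for some of these genes, because Fgf21 and Atf3 are among them. The capitals mark the 8 bases TGATGCAA or their reverse complement TTGCATCA, and each 60-base stretch is written 5′ to 3′ on the strand of its gene, from RefSeq on GRCm38.p6.
Fgf21 (chr7:45615596-45615655, minus strand): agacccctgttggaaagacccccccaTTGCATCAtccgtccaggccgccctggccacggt
Atf3 (chr1:191183410-191183469, minus strand): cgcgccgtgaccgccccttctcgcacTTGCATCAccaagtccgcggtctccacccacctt
Slc7a11 (chr3:50443627-50443686, minus strand): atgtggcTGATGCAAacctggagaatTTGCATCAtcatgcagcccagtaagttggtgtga
Chac1 (chr2:119351023-119351082, plus strand): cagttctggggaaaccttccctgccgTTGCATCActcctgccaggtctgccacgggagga
Gadd45g (chr13:51846548-51846607, plus strand): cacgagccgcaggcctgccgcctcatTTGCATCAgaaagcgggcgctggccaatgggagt
The first capital lies 139 bases before the start site in Fgf21, 110 in Atf3, 193 in Chac1 and 101 in Gadd45g, and the cystine transporter gene Slc7a11 holds 2 matches.

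Promoter windows of 250 bases before to 50 after the start were found for 9729 of the 12156 genes tested, 9206 of them by symbol, and several genes had more than 1 window. On either strand, TGATGCAA was in 2.65% of 302 windows of genes with an interaction called below 0, 1.86% of 161 windows of genes called above 0, 0.594% of the windows of all genes tested and 0.895% of all 32851 windows. The first 2 shares rest on few windows, 8 of 8 genes and 3 of 2 genes. The cAMP response element TGACGTCA was in 5.3%, 3.11%, 3.08% and 1.79% of the same 4 sets. The AP-1 site TGACTCA was in 7.28%, 5.59%, 3.79% and 5.2%. The forkhead core GTAAACA was in 2.65%, 2.48%, 2.49% and 3.65%. These shares describe letters in a window and do not show binding. Dusp1 holds 1 TGACGTCA, whose first base lies 143 bases before its start, shown in capitals in the following stretch.
Dusp1 (chr17:26508582-26508641, minus strand): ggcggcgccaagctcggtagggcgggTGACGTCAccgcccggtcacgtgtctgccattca

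Cytosolic heat shock genes, whose products refold damaged proteins, rose with SR-3420, and with inhibitors none passed the test in the main fit. Of 17 tested genes, 14 rose with SR-3420 at an adjusted p of at most 0.05 and 9 past both thresholds. With inhibitors 0 rose and 0 fell by edgeR, DESeq2 called none, and at an unadjusted p under 0.05 1 gene differed. In edgeR with the replicate number as a block 1 gene fell, Hspa1b (adjusted p = 0.0318), and 1 gene fell with no filter on low counts. The median went from 1.04 to -0.08, and the interaction was called below 0 for 9. Hspa1a, an inducible member of the HSP70 family, was 34.9, 32.3 and 24.2 CPM in Vehicle and 271, 384 and 196 CPM in SR-3420. Under inhibition Hspa1a was 28.1, 31.4 and 34.4 and 26.2, 21.9 and 21.2 CPM, the latter below each Lipase Inh. + Vehicle sample without passing the test (log2 effect -0.44 ± 0.23, adjusted p = 0.372). Its interaction was -3.64 ± 0.30 (adjusted p = 1.97e-08), and that of its near-identical neighbour Hspa1b, with which reads can be shared, was -3.20 ± 0.21. Hspb1, a small heat shock protein, had -2.48 ± 0.33 (adjusted p = 1.01e-05), and the co-chaperone gene Dnajb1 had -1.69 ± 0.24 (adjusted p = 2.16e-05).

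Immediate early genes, which respond to signals without new protein synthesis, showed large interactions. All 20 tested genes of the AP-1, EGR and related families rose with SR-3420 at an adjusted p of at most 0.05, 2 did so with inhibitors (Egr1 and Myc), and the interaction was called below 0 for 13. The median effect was 2.05 without and -0.06 with inhibitors. Fos, a subunit of AP-1, was 9.35, 12.4 and 7.06 CPM in Vehicle and 75.5, 87.6 and 61.5 CPM in SR-3420. With inhibitors it was 9.26, 15.2 and 7.86 and 5.86, 7.20 and 5.47 CPM, again with every SR-3420 sample below the vehicle samples and a log2 effect of -0.84 ± 0.37 that did not pass (adjusted p = 0.259). Its interaction was -3.79 ± 0.47 (adjusted p = 3.90e-06), that of Fosb, another AP-1 subunit, was -4.02 ± 0.51 and that of Jun was -3.05 ± 0.14. The zinc finger gene Egr1 kept part of its rise, with effects of 4.69 ± 0.18 and 0.88 ± 0.17 (adjusted p = 0.0031) and an interaction of -3.81 ± 0.24.

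Dual-specificity phosphatases, which switch off MAP kinases, followed the same direction. Of 10 tested, 8 rose and 1 fell with SR-3420, and 1 rose with inhibitors, Dusp10 (log2 effect 0.58 ± 0.07), with 2 rising without any 1 of Lipase Inh. + SR-3420 replicates 1 and 2 or SR-3420 replicates 2 and 3. The interaction was called below 0 for 7 and above 0 for 1, Dusp14 (1.05), and without Lipase Inh. + SR-3420 replicate 2 for 6 and 1. Dusp1 went from 35.1 ± 4.39 to 423 ± 30.1 CPM (SD, n = 3) without inhibitors and from 32.4 ± 6.57 to 40.3 ± 0.808 CPM under inhibition, an interaction of -3.26 ± 0.23 (adjusted p = 2.41e-09). Plk3, a stress-responsive kinase, had an interaction of -4.67 ± 0.40 (adjusted p = 3.47e-08) with levels of 1.01, 1.39 and 0.882 CPM in Vehicle and 34.1, 44.8 and 30.6 CPM in SR-3420. Under inhibition Plk3 had 2.19, 2.47 and 2.20 and 3.87, 2.93 and 2.23 CPM, and those 2 groups overlapped. Its list of growth arrest genes had 5 of 14 interactions called below 0, the cell cycle inhibitor Cdkn1a (-1.56) and the antiproliferative Btg2 (-2.74) included, whereas the kinase gene Plk2 rose in both arms (1.00 and 1.16) with an interaction of 0.16 ± 0.20 (adjusted p = 0.597). Kruppel-like factors had 2 called below 0, Klf4 (-2.01) and Klf6 (-1.12), and 1 above 0, Klf15 (1.43), of 12, and 4 were below 0 without Vehicle replicate 2 or without Lipase Inh. + SR-3420 replicate 3.

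Genes of fatty acid metabolism known as PPAR targets were split. Of 30 tested, 19 rose and 2 fell with SR-3420, 7 rose with inhibitors (4 with total counts alone), and the interaction was called below 0 for 6 (7 without Lipase Inh. + SR-3420 replicate 2) and above 0 for none, although 3 lay above 0 on adjusted p alone by edgeR (3 on unadjusted p under 0.05) and DESeq2 called 1. Pdk4, a kinase that spares glucose by shutting pyruvate dehydrogenase, was 552, 547 and 535 CPM in Vehicle and 4650.3, 4646 and 4531 CPM in SR-3420. With inhibitors Pdk4 was 567, 548 and 637 and 1114, 1068 and 1159.6 CPM, so it rose in both arms (3.08 ± 0.10 and 0.93 ± 0.09) with an interaction of -2.15 ± 0.13 (adjusted p = 1.86e-10). The lipid droplet coat gene Plin2 had -2.09 ± 0.16. Ucp1, the uncoupling protein of brown fat, was low in these cells, at 2.69 ± 0.430 CPM in Vehicle, and its interaction was -1.84 ± 0.60 (adjusted p = 0.0261). Acsl1, which activates fatty acids, kept part of its rise, with effects of 1.43 ± 0.07 and 0.67 ± 0.07 (adjusted p = 5.53e-06). Ucp3 moved otherwise, with 0.06 ± 0.21 without and 1.06 ± 0.22 with inhibitors (adjusted p = 0.00468) and an interaction of 1.00 ± 0.30 (adjusted p = 0.0172). Before rounding, that interaction was under the fold threshold. Among 24 lipase and lipid droplet genes the interaction was called for 2, Plin2 and Hilpda, an inhibitor of ATGL, with -3.74 ± 0.30 for the latter. Lipe, the gene of HSL itself, rose in both arms (0.77 ± 0.07 and 0.60 ± 0.07, adjusted p = 3.23e-05 for the second) with an interaction that did not pass (-0.18 ± 0.11, adjusted p = 0.231).

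Among repressed genes, Adrb3 encodes the β3-adrenergic receptor of adipocytes. Its level was 235, 305 and 189 CPM in Vehicle and 99.9, 88.7 and 90.8 CPM in SR-3420. With inhibitors it was 227, 293 and 183 and 324, 370.1 and 267 CPM, groups that overlapped. The effects were -1.39 ± 0.15 and 0.44 ± 0.15 (adjusted p = 0.105), and the interaction was 1.83 ± 0.21 (adjusted p = 1.84e-06). Pik3ip1, an inhibitor of PI3 kinase, went from 59.4 ± 7.73 to 13.9 ± 0.599 CPM without and from 66.1 ± 3.14 to 52.7 ± 5.87 CPM with inhibitors, an interaction of 1.75 ± 0.17 (adjusted p = 2.53e-07). Rgs2, which shortens G protein signals, went from 501 ± 56.1 to 117 ± 16.8 CPM and from 479.6 ± 47.5 to 364 ± 39.0 CPM, an interaction of 1.70 ± 0.17 (adjusted p = 2.58e-07). The other genes named by rule had interactions between 1.59 (Chst12, a chondroitin sulfotransferase) and 1.90 (Lfng, a glycosyltransferase that modifies Notch), with Fbxo31, Tfap4, Bmf and Kbtbd11 in between. Catabolic genes known as FOXO targets were mixed: 7 of 19 rose and 9 fell with SR-3420, and the interaction was called above 0 for 4 (Fbxo32, Pik3ip1, Bmf and the factor Klf15) and below 0 for 2 (Txnip, an arrestin-like protein that limits glucose uptake, with -1.41, and the insulin receptor substrate Irs2 with -1.02). The count below 0 was 1 without any 1 of Vehicle replicate 1, SR-3420 replicate 3 and Lipase Inh. + Vehicle replicate 3. With inhibitors 5 rose and 2 fell, but 2 rose without Lipase Inh. + Vehicle replicate 1, 3 rose without Lipase Inh. + Vehicle replicate 2 or Lipase Inh. + SR-3420 replicate 1 or 3, and 1 rose and 3 fell with total counts alone.

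**Figure D4:**
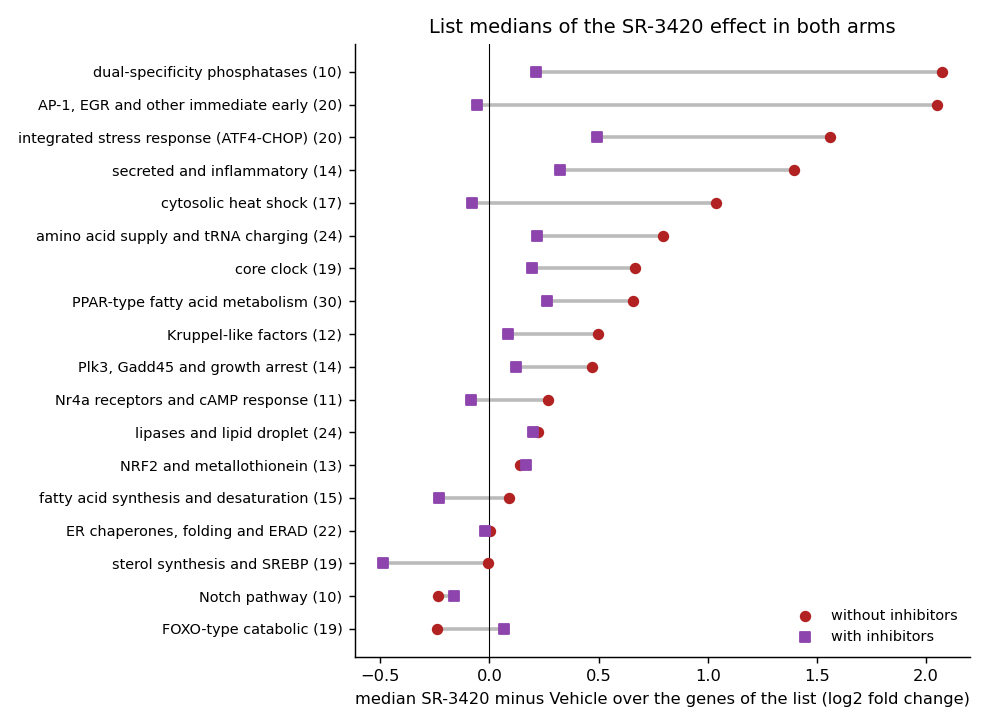
Median log2 effect of SR-3420 against Vehicle over the tested genes of each of 18 lists (number tested in brackets), without inhibitors (red circles) and with inhibitors (purple squares) on the same x axis. The AP-1 and heat shock lists reach about 0 with inhibitors (-0.06 and -0.08), the integrated stress response list stays at 0.49, and the sterol list moves from -0.01 to -0.49.

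Sterol synthesis genes, the targets of the transcription factor SREBP2, mostly fell with SR-3420 under inhibition and went both ways without it. Of 19 tested genes, 6 rose and 6 fell with SR-3420 alone (median -0.01), while with inhibitors 0 rose by edgeR, by DESeq2 or at an unadjusted p under 0.05, and 15 fell (median -0.49), against 1.36% of all genes that fell. The number that fell was 12 without Lipase Inh. + SR-3420 replicate 2 and 10 without Lipase Inh. + Vehicle replicate 2, the lowest over the alternatives. Beside this, the inhibitors alone raised 10 of these genes (median 0.55), and Lipase Inh. + SR-3420 lay near Vehicle (median -0.08). Both differences are taken against the same Lipase Inh. + Vehicle samples. The demethylase gene Cyp51 was 141, 145 and 154 CPM in Vehicle and 205, 202 and 202 CPM in SR-3420. It was 250.4, 274 and 232 CPM in Lipase Inh. + Vehicle and 173, 162 and 182 CPM in Lipase Inh. + SR-3420, so the Lipase Inh. + Vehicle samples were highest, the Vehicle samples lowest and no 2 groups overlapped. Its effects were 0.47 ± 0.06 and -0.54 ± 0.06 (adjusted p = 1.88e-05). The interaction was called for 2 genes, Insig1, which retains SREBP in the endoplasmic reticulum, at -1.26 ± 0.10, and Cyp51 at -1.02 ± 0.09 (adjusted p = 5.80e-08, and -0.98, under the fold threshold, without Lipase Inh. + SR-3420 replicate 2), for 1 gene without Vehicle replicate 1 or Lipase Inh. + Vehicle replicate 2, and lay below 0 on adjusted p alone for 11 and above 0 for 2. Fatty acid synthesis and desaturation genes also fell with SR-3420 under inhibition, 8 of 15 with 1 rising (Elovl3, a call lost without any 1 of Lipase Inh. + Vehicle replicates 1 and 2 or Lipase Inh. + SR-3420 replicates 1 and 3), and Scd2, a desaturase, had effects of -0.06 ± 0.09 and -0.82 ± 0.09 (adjusted p = 5.89e-06). The inhibitors alone raised 6 of them.

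Secreted and inflammatory factors had 4 of 14 interactions called below 0 and 5 that rose with inhibitors, among them Ptgs2, the inducible cyclooxygenase, with effects of 1.40 ± 0.16 and 1.11 ± 0.16. The first count was 5 without Lipase Inh. + SR-3420 replicate 2 and 7 without Vehicle replicate 2, and the second was 3 without Lipase Inh. + Vehicle replicate 2 or Lipase Inh. + SR-3420 replicate 3. Core clock genes had 2 of 19 called below 0, the repressors Nfil3 (-1.09) and Per2 (-1.02), while 11 lay below and 4 above 0 on adjusted p alone, Dbp (0.82) and Per3 (0.84) among the latter. The 2 calls rested on single libraries, with 0 called without Vehicle replicate 2 and 1 without any 1 of Vehicle replicate 1, SR-3420 replicate 3, Lipase Inh. + Vehicle replicates 1 and 3 and Lipase Inh. + SR-3420 replicates 1 and 2. Oxidative stress genes of the NRF2 and metallothionein list had 4 of 13 below 0, the heme oxygenase Hmox1 (-1.64) included. Nr4a receptors and cAMP-responsive genes had 2 below and 1 above 0 of 11, with the orphan receptor Nr4a1 rising in both arms (3.05 and 1.06), and 1 was below 0 without any 1 of Vehicle replicates 2 and 3, SR-3420 replicate 2, Lipase Inh. + Vehicle replicates 1 and 2 and Lipase Inh. + SR-3420 replicates 2 and 3. Of the Notch list 1 of 10 was called above 0, Lfng, and 2 were without Lipase Inh. + SR-3420 replicate 3. Marker lists gave 1 called interaction among 10 adipocyte genes (Ucp1, lost without any 1 of Vehicle replicate 1, Lipase Inh. + Vehicle replicates 1 and 2 and Lipase Inh. + SR-3420 replicate 3) and none by edgeR among 9 preadipocyte, 2 macrophage and 2 muscle genes tested, where 3 of these 13 had an unadjusted p under 0.05 and DESeq2 called 0.

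Some genes still responded to SR-3420 under inhibition. Of the 482 induced genes, 14 were called higher with inhibitors too, and of the 288 repressed genes 4 were called lower. The genes named here needed no minimum average level beyond the count filter, and several had few counts. In Lipase Inh. + SR-3420, Chrna2 had 24, 8 and 40 counts and Sgk2 had 24, 13 and 28. Lif had 8, 3 and 20 counts in the same samples, and Tmie had 14, 4 and 12. Rab39b, a vesicle-trafficking GTPase, was 1.96, 1.78 and 1.85 CPM in Vehicle and 4.70, 5.81 and 4.98 CPM in SR-3420. With inhibitors it was 1.90, 2.64 and 3.06 and 6.22, 6.40 and 6.36 CPM, without overlap in either arm, and its effects were 1.46 ± 0.21 and 1.30 ± 0.21 (adjusted p = 0.000453). Chrna2, a nicotinic receptor subunit of thermogenic fat, had 2.27 ± 0.24 and 1.87 ± 0.28 (adjusted p = 0.000238), and its interaction of -0.40 ± 0.39 did not pass (adjusted p = 0.513). Sgk2, a kinase, had effects of 1.60 ± 0.41 and 1.59 ± 0.45 (adjusted p = 0.0486 for the second), and the latter was 1.41 (adjusted p = 0.128) without Lipase Inh. + SR-3420 replicate 2. The cytokine gene Lif had 3.09 ± 0.30 and 1.59 ± 0.42 (adjusted p = 0.0298), and its interaction of -1.50 ± 0.57 had an adjusted p of 0.0545. Rasl11a, a Ras-like GTPase, fell by 1.04 ± 0.14 and 1.41 ± 0.14 on the log2 scale, from 20.0, 21.4 and 17.0 to 10.4, 9.24 and 8.96 CPM and from 27.1, 26.8 and 22.1 to 10.5, 10.9 and 8.08 CPM. Bmf, a pro-apoptotic BH3-only protein, and Lfng also fell in both arms, by 1.29 and 1.19 with inhibitors, yet both had a called interaction (1.67 ± 0.33 and 1.90 ± 0.33). The hair-cell gene Tmie had -1.21 ± 0.33 with inhibitors (adjusted p = 0.0351, and -1.23 with adjusted p = 0.0638 without replicate 2).

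Most genes with a called interaction were also changed by SR-3420 without inhibitors. The interaction contains that effect with its sign reversed and shares its 6 samples, so part of this overlap is built in. Of the 294 genes below 0, 252 were SR-3420-induced, and 38 of the remaining 42 were raised by SR-3420 at an adjusted p of at most 0.05 with a change under the fold threshold. Of the 170 genes above 0, 124 were SR-3420-repressed, and 31 of the remaining 46 were lowered at an adjusted p of at most 0.05. In the inhibitor arm itself, 7 of the 294 fell and 11 of the 170 rose with SR-3420 at that threshold. The inhibitors alone changed 6 of the 294 and 3 of the 170 at an adjusted p of at most 0.05. Over all genes the inhibitors raised 0.485%, and the share they lowered was not counted. The counts of 6 and 3 take both directions, so they have no matching share over all genes. Their median effect was 0.12 on the 294 and -0.16 on the 170, against -0.002 over all genes. The samples of that difference are also terms of the interaction. On the linear CPM scale the interaction kept its sign for all 294 and all 170 genes, and the sign was the same in all 3 same-numbered sets for 293 and 167. Both counts come from the samples that gave the call, which favours such agreement, so they are no separate check. Genes with an interaction above 0 were expressed at a lower level, with a median average log2 CPM of 2.60 against 4.94 for all genes tested and 5.04 for genes below 0. Their median gene span was 11036 bp, against 18294 bp for genes below 0 and 21738 bp for all genes tested.

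Snai1, a zinc finger repressor, and Slc25a42, a mitochondrial coenzyme A carrier, moved in opposite directions in the 2 arms. Snai1 was 12.8, 10.0 and 13.3 CPM in Vehicle and 19.2, 15.5 and 20.4 CPM in SR-3420. Under inhibition Snai1 was 12.03, 12.7 and 13.6 and 7.30, 5.06 and 7.95 CPM, so SR-3420 raised it in the first arm and lowered it in the second, without overlap in either. Slc25a42 was 140.5, 126 and 130.2 CPM in Vehicle and 76.6, 71.7 and 80.4 CPM in SR-3420. With inhibitors it was 127, 130.4 and 113 and 156, 159 and 164 CPM, the reverse order. The interactions were -1.44 ± 0.20 and 1.16 ± 0.10 (adjusted p = 1.23e-05 and 3.47e-08). Among the genes below 0 without a called SR-3420 effect, the rule also named Adamts1 (-1.47), Mob3a (-1.26), Rnd3 (-1.22) and Synpo (-1.21), and among those above 0 Mmp11 (1.36), Mycl (1.35), Klhl21 (1.16) and 1190005I06Rik (1.12).

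Past both thresholds in the inhibitor arm and not in the other were 12 genes higher with SR-3420 and 6 lower. The difference between the arms was called for 5 of the 12 (3 by DESeq2) and for 0 of the 6 by edgeR or DESeq2, with 3 of these 6 at an unadjusted p under 0.05. Several of the higher ones rested on the library that stood apart. Lars2, the mitochondrial leucyl-tRNA synthetase, was 588, 208400.0 and 1103 CPM in Lipase Inh. + SR-3420, and its interaction of 6.95 ± 1.62 became 0.58 (adjusted p = 0.302) without replicate 2. The histone genes Hist1h4d, Hist2h4 and Hist1h2bj, whose families have near-identical copies, were 45.0, 25.1 and 23.5 CPM in that library and at most 2.29 CPM in the other Lipase Inh. + SR-3420 samples. Their effects with inhibitors had adjusted p of 0.989, 0.419 and 0.305 without it. Acot3, a peroxisomal acyl-CoA thioesterase with few counts, had an effect of 3.54 (adjusted p = 0.0275) with and 3.27 (adjusted p = 0.0768) without it, and its interaction was called in both fits (5.32 and 5.05, adjusted p = 0.00363 and 0.00707). Of the 6 genes called lower, the rule named I830012O16Rik, Iigp1, Ifit3, Aqp5 and Mrgprf. Ifit3, an interferon-induced gene, was 10.6, 10.1 and 6.93 CPM in Lipase Inh. + Vehicle and 3.06, 4.53 and 4.26 CPM in Lipase Inh. + SR-3420, with 4.93, 4.40 and 5.205 CPM in Vehicle, and the inhibitors alone had raised it by 0.91 ± 0.19 (adjusted p = 0.0145). Mrgprf, an orphan receptor, fell by 1.09 with and 0.85 without inhibitors, and the inhibitors alone had raised it by 0.54.

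**Figure D5:**
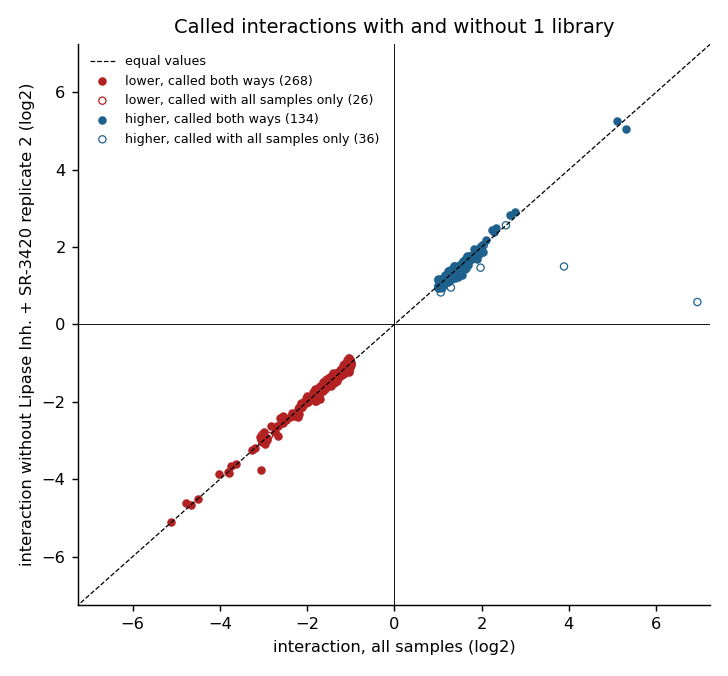
Interaction on the log2 scale for the 464 genes called with all samples (x axis) against the same value fitted without Lipase Inh. + SR-3420 replicate 2 (y axis), for genes called below 0 (red) and above 0 (blue). Filled points were called in both fits (268 and 134), open points with all samples only (26 and 36), and the point far off the dashed line of equal values is Lars2.

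Leaving out Lipase Inh. + SR-3420 replicate 2 gave 304 genes below and 159 above 0. Of the genes called with all samples, 268 of 294 and 134 of 170 were among them. The effect with inhibitors was then called upward for 21 genes and downward for 8. Over the induced genes chosen with all samples, the median share of the induction kept was 0.191, and over the repressed genes 0.155. Across all genes the effects in the 2 arms correlated at 0.318 (Pearson's r, 0.320 without that library) and 0.382 (Spearman's rho). These are descriptions across genes of the same 12 libraries.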

How the data were processed

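RNA-seq libraries (TruSeq) from 3 samples per group were mapped to mouse mm9 by the authors (STAR 2.4.2a), passed through HOMER and summarised over RefSeq genes by iRNA-seq. In the table the authors deposited are raw counts of reads for 20295 genes in 18 columns, neither normalised nor filtered, and 0 columns belong to other samples. Whether the counting used strand is not stated, so overlapping and antisense genes are uncertain. The authors' text describes 1 read kept per position, whereas Lars2 had 201.5 counts per counted base in 1 library. Starts were converted to count from 1.

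The analysis used edgeR 4.0.16 in R 4.3.3: filterByExpr (minimum count 10, minimum total 15, 12156 genes kept), TMM factors and 1 quasi-likelihood model with a mean per group over all 18 samples, whose 6 groups share the estimate of spread. Benjamini-Hochberg adjustment covered all genes tested, and the standard error is the fold change over the square root of F. Levels are CPM of TMM-scaled libraries (total counts of 4263755 to 21205032 set the precision, for counting error only), given per sample or as mean ± SD. The samples come from independent experiments with 1 cell line, each in technical duplicate, according to the study, so p-values measure the spread between these samples.

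Members, the 24 gene lists and the rule for named genes were chosen with earlier results of these data known. The rule took 3 marker genes, the 10 largest interactions opposing an SR-3420 effect in each direction (called with and without Lipase Inh. + SR-3420 replicate 2, average log2 CPM of at least 3, same sign in 3 same-numbered sets), 5 per direction among genes not called for SR-3420 alone, 5 per direction called in both arms, 5 per direction called with inhibitors only, list members with large interactions, and Lars2. Further list members given for contrast were chosen after their values were seen. Promoter windows came from RefSeq (GRCm38.p6) and were used for sequence only. On simulated counts for this interaction with 200 genes changed 3-fold, 198 (99%) were recovered and 2 others called among 12027 genes tested. The simulation gave every gene the same spread and changed only well-counted genes. It held no effect of SR-3420 or of the inhibitors alone and no library full of 1 gene, so it does not give the recovery in these data. Alternatives were DESeq2 1.42.0, RLE factors or total counts alone, other count filters, only the 12 samples compared, a replicate block, a robust spread estimate, thinning to 4263755 counts, Lars2 left out, no fold threshold and each sample left out in turn. A linear scale and list counts under each alternative were added after seeing the data.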

Additional observations from a re-analysis of the deposited data

Results flagged for a closer look

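Effects of SR-3420 in opposite directions with and without inhibitors, both at an adjusted p of at most 0.05 and with a called interaction (edgeR), were found for 11 genes. Interactions above 0, where SR-3420 lowered the gene without inhibitors and raised it with them, were 1.16 for Slc25a42, 1.07 for Rassf6, 1.61 for Kbtbd11 and 1.70 for Tfap4. Interactions below 0, with the reverse order, were -1.04 for S1pr1, -1.47 for Adamts1, -1.11 for Sema7a, -1.44 for Snai1, -1.02 for Cyp51, -1.22 for Rnd3 and -1.26 for Mob3a. Without Lipase Inh. + SR-3420 replicate 2, the same held for 4 of the 11 (Slc25a42, Snai1, Rassf6 and Mob3a). In that fit Cyp51 kept its effect with inhibitors (-0.51, adjusted p = 0.000249) but its interaction was -0.98, and the effect with inhibitors of the other 6 had adjusted p between 0.0643 and 0.139.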

How the results depend on the processing

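The counts of 294 and 170 called interactions, and of 392 SR-3420-induced genes with an opposing interaction, stayed within 1.5 times under every alternative run that kept the fold threshold. Without that threshold there were 1797 below and 1524 above 0, and 363 and 165 genes called upward and downward with inhibitors. Total counts alone gave 336 relieved SR-3420-repressed genes in place of 197, 16 upward effects with inhibitors in place of 26 and a share of the induction kept of 0.154 in place of 0.189, with 335 induced and 501 repressed genes in place of 482 and 288. Thinning to the smallest library gave 127 relieved genes and 6 downward effects with inhibitors in place of 10. No filter on low counts gave 48 upward effects with inhibitors, and at least 50 counts in 3 samples gave 17 upward and 6 downward. Leaving out 1 sample at a time gave 278 to 313 interactions below and 158 to 207 above 0, 375 to 416 reduced and 171 to 225 relieved genes, 20 to 40 upward (40 without Lipase Inh. + SR-3420 replicate 3) and 7 to 12 downward effects with inhibitors, and shares kept of 0.180 to 0.202 for induced and 0.104 to 0.157 for repressed genes. With the choice of induced genes made in 2 replicates and the share kept taken from the other, it was 0.203. For repressed genes chosen in the same way, the share was 0.122, 0.155 and 0.236 when measured in replicates 1, 2 and 3.

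With the replicate number as a block, 302 interactions lay below and 184 above 0, and 40 genes were called upward with inhibitors in place of 26. The effects with inhibitors of Adrb3, Fos and Rgs2, among others, passed only then (adjusted p = 0.00658, 0.0179 and 2.93e-05). Deviations of same-numbered samples correlated at -0.0121, 0.130 and 0.206 on average for numbers 1, 2 and 3, and 10 of 12 samples correlated best with their own number, so the pairing is a hint from the data only.

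For genes named by rule with a called interaction, 708 values kept direction and adjusted p and 12 lost the adjusted p: Synpo and Acot3 in the thinned counts (0.139 and 0.0918), Lars2 without Lipase Inh. + SR-3420 replicate 2 (0.302) and Hist2h4 in 9 alternatives (0.106 without that library). Their effects with inhibitors kept the call in 320 comparisons and lost it in 81, 12 of them for Fgf21, whose adjusted p ranged over all its alternatives from 0.00147 to 0.504. None of these reversed. The cause of these shifts was not tested. The smallest library had 74 of the tested genes at 0 counts, where a difference cannot be read at this depth.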
